A study of Homo sapiens with 6 samples.

Results

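The genes described here are transcription factors of the homeobox, SOX, FOX, KLF, T-box and related families, measured by RNA sequencing in SH-SY5Y cells treated with methamphetamine (METH) or with PBS. SH-SY5Y is an established human neuroblastoma cell line of wild-type genotype, used as a model of dopaminergic neurons. The METH-treatment group received 2 mM METH, a psychostimulant, for 24 h, and the PBS-treatment group received PBS, with 3 libraries in each group. The 24 h comes from the treatment protocol, while the time field of the labels reads day 0. Members were chosen by gene name, from the prefixes HOX, SOX, FOX, LHX, ISL, MEIS, PBX, IRX, POU, DLX, MSX, PAX, TBX, KLF, HAND, NEUROD, TWIST, SNAI and a few more, from the prefix of SIX4 and SIX6, and from TCF followed by a number. TCF7 and antisense genes were left out. This gave 50 of the 4101 genes of the deposited table.

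The factors bind DNA through different domains. Homeobox genes encode a homeodomain, and HOX proteins bind together with PBX and MEIS partners to give cells their position along the body axis. SOX proteins bend DNA with an HMG box, FOX proteins bind through a forkhead domain, KLF proteins read GC-rich sites with zinc fingers, and HAND, NEUROD and TWIST proteins pair up through a basic helix-loop-helix (bHLH) domain. Several of these factors set cell identity in the neural crest, from which neuroblastoma arises.

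Expression is given in CPM, read counts divided by the depth of the library, without correction for gene length. The libraries are called PBS 10, PBS 11, PBS 12 and METH 1, METH 2, METH 3 after the table, and values by library are given in that order. Depth ranged from 86.8 to 110.77 M reads with PBS (median 93.1) and from 85.7 to 107 M reads with METH (median 90.9). Across the 4101 genes on the log2 scale, the correlation between libraries was 0.945 to 0.970 within PBS, 0.974 to 0.986 within METH and 0.871 to 0.930 between the groups, with PBS 10 the least like the METH libraries. In the table, the authors' unadjusted p-value for METH versus PBS is under 0.1 for every gene, so the members had been selected for a difference on these same libraries before any test here, and factors outside the table were not analysed here. Groups were compared by limma on log2(CPM + 0.1). The p-values were adjusted over the 4101 genes by the Benjamini-Hochberg method, and an adjusted p-value under 0.1 was taken as past the threshold. Adjusted p-values within a table selected in this way are too small. Gene positions are those of GENCODE release 29 (GRCh38), since the build used for the counts is not given in the sources used here. Nothing in the labels says that the 3 libraries of a group came from separate cultures, so the p-values measure the spread between libraries, which may be technical.

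More of the 50 genes were up-regulated than down-regulated with METH. At the limma threshold 30 genes were up-regulated and 13 down-regulated, 43 in all, where 69.1% of all genes of the table were called, 33.3% as up-regulated and 35.8% as down-regulated. The log2 fold change was positive in 35 of the 50 (70%), against 50.4% of the table, and its median was 0.58, against 0.11 over all genes. The largest increase was that of SOX2 and the largest decrease that of TBX3. In 37 genes the 3 METH libraries lay all above (25 genes) or all below (12 genes) the 3 PBS libraries, where 64% of all genes did so, 31% above and 33% below. For a single gene, an exact permutation test of 3 libraries against 3 cannot give a 2-sided p-value below 0.1.

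The counts depended on single libraries. Without METH 1 there were 10 up-regulated and 8 down-regulated members, where 12% and 15.3% of all genes were called in these directions. Without METH 2 there were 11 and 7 (10% and 13.7% of all genes), and without PBS 12 there were 20 and 8 (18.2% and 20.8%). The counts were 24 and 11 without PBS 10 (24.8% and 30.1%), 26 and 13 without PBS 11 (37.8% and 33.4%), and 27 and 10 without METH 3 (32.4% and 27.9%). The calls over the whole table thus also fell most without METH 1, METH 2 or PBS 12. METH 3 was the lowest METH library for 18 of the 30 up-regulated members and for 52.3% of all genes, and METH 1 was the highest for 19 of the 30 and for 44.3% of all genes. Past the threshold with all libraries and without any single one were 14 members, 28% of the 50, where 19.5% of all genes were, 9% up-regulated and 10.5% down-regulated. Of these, 12 are described here, SOX2, KLF6, KLF3, SIX4, FOXN3 and ISL2, up-regulated, and FOXC1, TCF19, PAX5, HAND1, TCF15 and TBX3, down-regulated. When the adjustment was made over 15724 genes, the number that the authors' own adjustment implies, 8 members were up-regulated and 6 down-regulated, where 15.2% of all genes passed, 7.71% as up-regulated and 7.49% as down-regulated. Of these 14 genes 13 had also passed without any single library, with KLF10 in place of TCF15. At a limma adjusted p-value under 0.05 there were 16 up-regulated and 9 down-regulated members, where 36.1% of all genes passed, 17% and 19.1% in the 2 directions. On reads recovered from the CPM values, edgeR called 23 members up-regulated and 13 down-regulated (68.3% of all genes, 28.4% and 39.9%), and DESeq2 called 26 and 13 (73% of all genes, 32.7% and 40.3%). FOXO1, FOXO3B, NEUROD1 and SOX5 were past the threshold by limma but by neither of these tests. In 5 called genes, FOXJ2, FOXN4, FOXO1, HOXC10 and SOX5, the 95% interval of the limma log2 fold change, which is not adjusted for the number of genes, included 0.

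**Figure D1:**
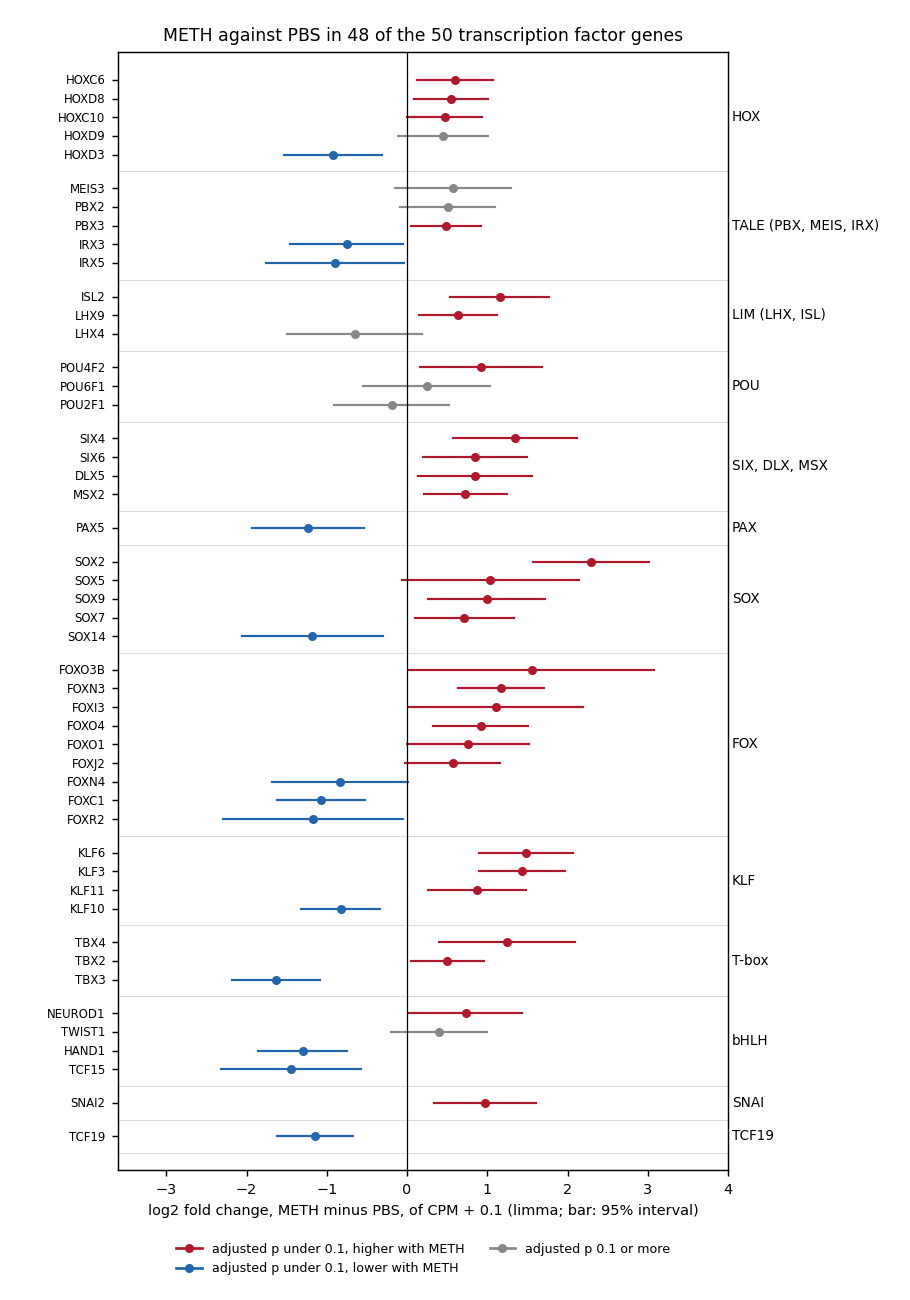
The log2 fold change of 48 of the 50 genes, METH minus PBS, on the horizontal axis, with its 95% interval as a bar, grouped by family and coloured by the limma call. Of the genes plotted 28 were up-regulated, 13 down-regulated and 7 not past the threshold, SOX2 stands farthest to the right at 2.30 and TBX3 farthest to the left at -1.64.

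**Figure D2:**
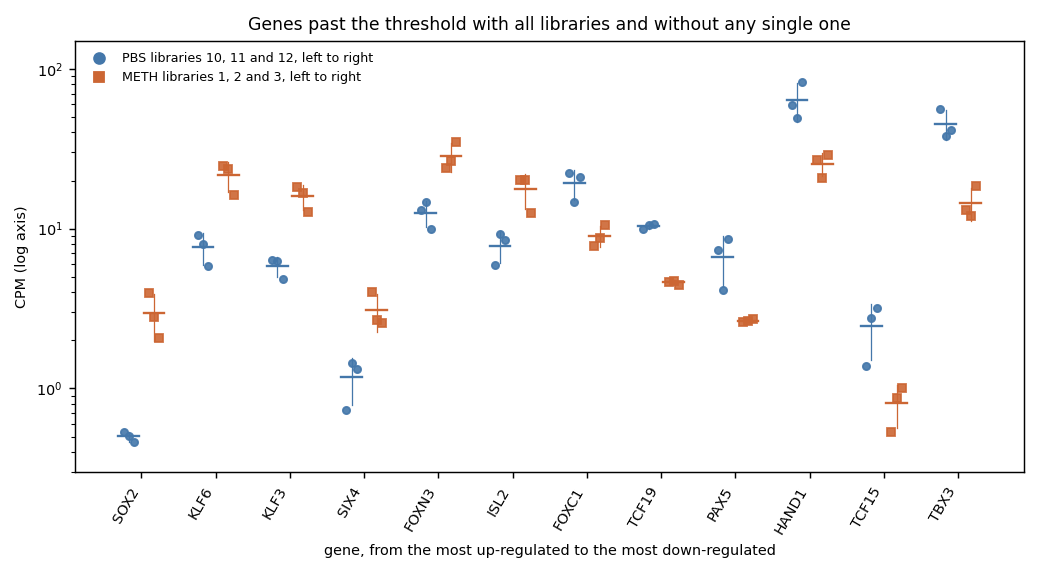
CPM on a log axis in each PBS library (circles) and METH library (squares) for 12 of the 14 genes past the threshold with all libraries and without any single one, with horizontal lines at the group mean and vertical lines for 1 SD (n = 3). In each of these genes the 3 squares lie all above or all below the 3 circles.

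Among the HOX genes, which specify position along the trunk and limbs, 3 of 5 were up-regulated, 1 was down-regulated and 1 was not past the threshold (median log2 fold change 0.47). For comparison, 33.3% of all genes of the table were up-regulated and 35.8% down-regulated. HOXC6 (ENSG00000197757, chromosome 12, 53990624 to 54030823) was 7.54, 8.42 and 9.93 CPM with PBS and 12.7, 14 and 12.4 CPM with METH (log2 fold change 0.60, SE 0.212, limma adjusted p = 0.0525). HOXC10, its neighbour, was 11.6, 11.2 and 13.6 CPM with PBS and 18.1, 17.9 and 14.4 CPM with METH (log2 fold change 0.47, SE 0.208, limma adjusted p = 0.0843). In both genes every METH library was above every PBS library, although by little in HOXC10, where the lowest METH value was 14.4 CPM and the highest PBS value 13.6 CPM. The annotated span of HOXC6 covers HOXC4, HOXC5, HOXC8 and HOXC9, and both genes overlap AC012531.2 on the same strand, so that the origin of their reads within the cluster is uncertain. HOXC6 was not past the threshold without METH 1 or METH 2 (limma adjusted p up to 0.169), and the call of HOXC10 survived the loss of METH 3 but of no other library (limma adjusted p up to 0.232).

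Within the HOXD cluster of chromosome 2, HOXD3 and HOXD8 changed in opposite directions. HOXD8 (ENSG00000175879, chromosome 2, 176129694 to 176132695) was 9.78, 9.88 and 10.8 CPM with PBS and 16.9, 14.7 and 13.3 CPM with METH (log2 fold change 0.55, SE 0.204, limma adjusted p = 0.0585). HOXD3 (ENSG00000128652, chromosome 2, 176136612 to 176173102), only 3917 bp away on the same strand, was 6.19, 4.28 and 5.07 CPM with PBS and 3.28, 2.51 and 2.25 CPM with METH (log2 fold change -0.93, SE 0.271, limma adjusted p = 0.0335). The 3 METH libraries were thus above the PBS libraries for HOXD8 and below them for HOXD3. HOXD9, on the other side of HOXD8, was not past the threshold at 15.1 ± 3.76 CPM (SD, n = 3) with PBS and 20.3 ± 2.88 CPM (SD, n = 3) with METH (log2 fold change 0.45, 95% interval -0.11 to 1.01, limma adjusted p = 0.13). HOXD9 had 1 METH library, METH 3, below the highest PBS library, and it passed without PBS 11. HOXD4 lies within the annotated span of HOXD3, which also overlaps AC009336.2 on the same strand, so the origin of the HOXD3 reads is uncertain. The antisense gene HOXD-AS2 overlaps HOXD3, HOXD8 and HOXD9. HOXD8 was not past the threshold without METH 1 or METH 2 (limma adjusted p up to 0.184), nor HOXD3 without METH 2 (limma adjusted p = 0.109).

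The TALE homeodomain proteins include PBX and MEIS, which bind DNA beside HOX proteins, and the Iroquois factors IRX, which pattern the neural plate and limbs. PBX3 was up-regulated, IRX3 and IRX5 were down-regulated, and PBX2 and MEIS3 were not past the threshold. PBX3 (ENSG00000167081, chromosome 9, 125747345 to 125967377) went from 22.1, 17 and 19.4 CPM to 26, 27.9 and 27.9 CPM (log2 fold change 0.49, SE 0.194, limma adjusted p = 0.068). The groups of PBX3 did not overlap, and the lowest METH value was 3.82 CPM above the highest PBS value. The call of PBX3 survived the loss of PBS 10 but of no other library (limma adjusted p up to 0.189).

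PBX2 and MEIS3 were more abundant per kb of exon than PBX3, IRX3 and IRX5, and both were low in PBS 10. PBX2 was 38.6, 64.5 and 53.4 CPM with PBS and 89.7, 77.6 and 54.8 CPM with METH (log2 fold change 0.51, 95% interval -0.09 to 1.1, limma adjusted p = 0.115). For MEIS3 the values were 46.3, 94.5 and 99.1 CPM and 129.9, 128 and 85.2 CPM (log2 fold change 0.57, 95% interval -0.15 to 1.29, limma adjusted p = 0.134). In both genes METH 3 lay within the range of the PBS libraries, and both were past the threshold without METH 3, PBX2 also without PBS 11. The pair of Iroquois genes fell together. IRX3 (ENSG00000177508, chromosome 16, 54283304 to 54286763) went from 2.77, 2.38 and 3.93 CPM to 1.38, 2.26 and 1.63 CPM (log2 fold change -0.75, SE 0.312, limma adjusted p = 0.0733), and IRX5 (ENSG00000176842, chromosome 16, 54930862 to 54934485) from 1.82, 1.2 and 3.37 CPM to 1.04, 1.01 and 0.953 CPM (log2 fold change -0.90, SE 0.38, limma adjusted p = 0.0759). Every METH library was below every PBS library, but the distance between the groups was small against the spread of the PBS libraries in both genes. Neither was past the threshold without PBS 12 or without any one of the METH libraries (limma adjusted p up to 0.20 for IRX3 and 0.195 for IRX5), and the log2 fold change of IRX5 was -0.59 with 1 CPM added in place of 0.1.

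The LIM homeobox factors act in the specification of motor neurons, pituitary and gonad. ISL2, a motor neuron factor (ENSG00000159556, chromosome 15, 76336724 to 76342476), was 5.89, 9.2 and 8.44 CPM with PBS and 20.3, 20.1 and 12.6 CPM with METH (log2 fold change 1.15, SE 0.274, limma adjusted p = 0.0207). Each METH library was above each PBS library, with METH 3 the closest to them. LHX9, which acts in gonad and forebrain development (ENSG00000143355, chromosome 1, 197911902 to 197935478), was 5.13, 5.53 and 4.77 CPM with PBS and 8.29, 7.83 and 7.96 CPM with METH (log2 fold change 0.63, SE 0.215, limma adjusted p = 0.0469). The METH libraries of LHX9 were tightly grouped and above the PBS libraries, but the call was lost without METH 1 or METH 2 (limma adjusted p up to 0.139). LHX4, a pituitary factor, had 19 to 55 reads with PBS and 12 to 20 reads with METH (log2 fold change -0.65, 95% interval -1.5 to 0.19, limma adjusted p = 0.138). Its METH libraries were all below its PBS libraries, without passing the threshold, its log2 fold change with 1 CPM added was -0.19, and it overlaps ACBD6 on the other strand.

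ISL2 was the only member of the 32 matched by symbol to a RefSeq promoter (GRCh38.p14, from 250 bases before to 50 bases after the start site) whose promoter held the full cAMP response element TGACGTCA, read on both strands. It is shown because the element is the one that CREB family factors bind, and because ISL2 was among the 14 genes that no single library decided. The 24 bases at chr15:76336728-76336751, plus strand, are given 5′ to 3′ with the element in capitals, its first base 37 bases before the start site.
ISL2 promoter: gtgcgtgtTGACGTCAtgctgcgt
The share with this element was 3.12% of the member promoters, 3.84% of the promoters of 2810 genes of the table and 1.98% of all 27305 promoters. The shorter core TGACG, which the full element contains, was present in 31.2% of member promoters (10 of 32), in 33.1% of those of the table and in 25% of all promoters. The GC box GGGCGG was found in 27 of the 32 member promoters (84.4%), against 70.2% of the table and 44.6% of all promoters, and the KLF core CACCC in 65.6%, 64.3% and 58.9%. The homeodomain core TAATTA was in 3 member promoters, those of FOXO4, HOXD3 and MSX2 (9.38%), against 1.64% of the table and 4.98% of all. The E-box CACCTG, read by SNAI and ZEB proteins, was in 3 (9.38%), against 17.2% and 20.6%. These shares are descriptions of the letters in the windows and were not tested.

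The homeobox genes SIX4, SIX6, MSX2 and DLX5 were each up-regulated, where 33.3% of all genes of the table were. SIX4, which works with EYA coactivators in muscle and sensory placodes (ENSG00000100625, chromosome 14, 60709528 to 60724348), was 0.731, 1.45 and 1.33 CPM with PBS and 4.01, 2.66 and 2.56 CPM with METH (log2 fold change 1.35, SE 0.342, limma adjusted p = 0.0237). SIX6 (ENSG00000184302, chromosome 14, 60508951 to 60512850), an eye and hypothalamus factor, was 8.97, 10.7 and 13.6 CPM with PBS and 27.9, 19.3 and 14.3 CPM with METH (log2 fold change 0.85, SE 0.285, limma adjusted p = 0.0462). Both lie on chromosome 14, 196678 bp apart, and in each of them the METH libraries were above the PBS libraries, with METH 1 the highest. The distance from METH 3 to the nearest PBS library was small for SIX6, which was not past the threshold without METH 1 or METH 2 (limma adjusted p up to 0.151). SIX6 overlaps C14orf39 on the other strand.

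MSX2, a BMP-responsive repressor of craniofacial development (ENSG00000120149, chromosome 5, 174724533 to 174730893), was 10.5, 15.5 and 14.3 CPM with PBS and 24, 23.7 and 18.6 CPM with METH (log2 fold change 0.73, SE 0.229, limma adjusted p = 0.0391). Its groups did not overlap, but the call was lost without METH 1 or METH 2 (limma adjusted p up to 0.135). DLX5, which acts in the branchial arches and in forebrain interneurons (ENSG00000105880, chromosome 7, 97020392 to 97024950), was 6.83, 5.31 and 8.66 CPM with PBS and 17.5, 12.8 and 8.23 CPM with METH (log2 fold change 0.84, SE 0.315, limma adjusted p = 0.0589). METH 3 of DLX5 lay below PBS 12, and the call was lost without PBS 11, METH 1 or METH 2 (limma adjusted p up to 0.185).

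**Figure D3:**
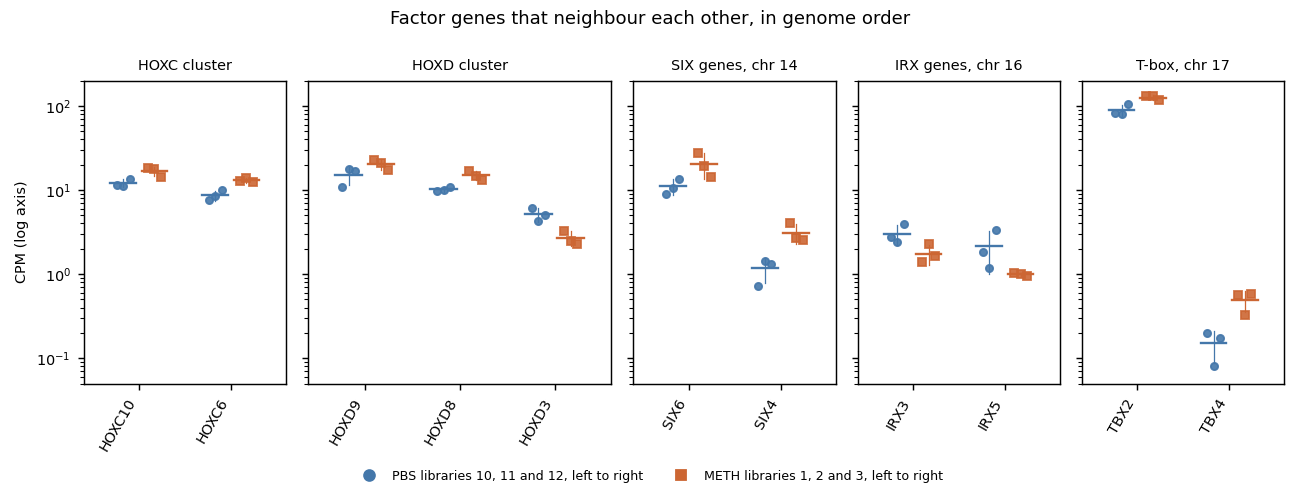
CPM on a log axis in each library for members near each other in the genome, in genome order within each panel, with horizontal lines at the group mean and vertical lines for 1 SD (n = 3). The METH libraries lie above the PBS libraries in SIX4, SIX6 and the 2 T-box genes, below them in the 2 IRX genes, and in the HOXD cluster above them for HOXD8 and below them for HOXD3.

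The POU factors included the smallest changes, those of POU2F1 and POU6F1. POU4F2, a factor of retinal ganglion cells, was up-regulated at a very low level, from 0.108, 0.15 and 0.161 CPM to 0.444, 0.297 and 0.327 CPM, which rest on 12 to 15 reads with PBS and 27 to 38 reads with METH (log2 fold change 0.92, SE 0.339, limma adjusted p = 0.0567). The groups of POU4F2 did not overlap, and the call was lost without PBS 10, METH 1 or METH 2 (limma adjusted p up to 0.167). With 1 CPM added before taking log2 in place of 0.1, its log2 fold change was 0.25. POU2F1 (Oct-1), present in most cell types, was 2.65 ± 0.53 CPM (SD, n = 3) with PBS and 2.35 ± 0.745 CPM (SD, n = 3) with METH (log2 fold change -0.19, 95% interval -0.91 to 0.52, limma adjusted p = 0.563). POU6F1, a brain-expressed factor, was 4.69 ± 2.13 CPM (SD, n = 3) with PBS and 5.38 ± 1.6 CPM (SD, n = 3) with METH (log2 fold change 0.24, 95% interval -0.55 to 1.04, limma adjusted p = 0.517). In POU2F1 and POU6F1 the libraries of the groups overlapped.

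PAX5, the paired-box factor known for B-cell identity and for the midbrain-hindbrain boundary, was the only PAX gene of the table (ENSG00000196092, chromosome 9, 36833275 to 37034185). It was 7.33, 4.11 and 8.61 CPM with PBS and 2.62, 2.63 and 2.74 CPM with METH (log2 fold change -1.23, SE 0.309, limma adjusted p = 0.0232). The METH libraries lay close to one another and below all PBS libraries, which were spread more widely.

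Among the SOX genes 4 of 5 were up-regulated and SOX14 was down-regulated (median log2 fold change 0.99). For comparison, 33.3% of all genes of the table were up-regulated and 35.8% down-regulated. SOX2, which maintains neural stem cells and pluripotency (ENSG00000181449, chromosome 3, 181711924 to 181714436), was 0.533, 0.507 and 0.462 CPM with PBS and 3.97, 2.8 and 2.08 CPM with METH, a METH mean 5.89 times the PBS mean (log2 fold change 2.3, SE 0.321, limma adjusted p = 0.00473). The PBS libraries of SOX2 were close to one another and rested on 43 to 59 reads, while the METH libraries had 222 to 340 reads and all lay above them. With 1 CPM added in place of 0.1, the log2 fold change of SOX2 was 1.37. SOX2 lies within SOX2-OT, a long non-coding gene on the same strand.

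SOX9, a factor of cartilage, glia and neural crest (ENSG00000125398, chromosome 17, 72121020 to 72126420), was 1.2, 1.9 and 0.988 CPM with PBS and 3.34, 2.32 and 2.57 CPM with METH (log2 fold change 0.99, SE 0.322, limma adjusted p = 0.0423). The METH libraries of SOX9 were above the PBS libraries, and the call was lost without PBS 12 or METH 1 (limma adjusted p up to 0.133). SOX7, a factor of endothelial development, was 12.2, 20.4 and 10.8 CPM with PBS and 25.1, 25.3 and 18.9 CPM with METH (log2 fold change 0.72, SE 0.275, limma adjusted p = 0.0621). It overlapped between the groups, since METH 3 was below PBS 11, and it overlaps PINX1 on the same strand. The call of SOX7 was lost without PBS 10, PBS 12, METH 1 or METH 2 (limma adjusted p up to 0.171). SOX5, a partner factor without an activation domain of its own, had 10 to 56 reads with PBS and 27 to 70 reads with METH, with overlapping groups (log2 fold change 1.04, SE 0.491, limma adjusted p = 0.0943). Its call survived the loss of PBS 10 but of no other library (limma adjusted p up to 0.237), and its log2 fold change with 1 CPM added was 0.33. SOX14, a repressor of the developing brain and spinal cord (ENSG00000168875, chromosome 3, 137764284 to 137766338), was 1.03, 1.02 and 1.28 CPM with PBS and 0.327, 0.804 and 0.29 CPM with METH (log2 fold change -1.18, SE 0.388, limma adjusted p = 0.0436). METH 2 of SOX14 was closer to the PBS libraries than to METH 1 or METH 3, and the call was lost without PBS 12 or METH 1 (limma adjusted p up to 0.127). With 1 CPM added, the log2 fold change of SOX14 was -0.53.

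All 9 FOX genes of the table passed the threshold, 6 up-regulated and 3 down-regulated, with a median log2 fold change of 0.76, but in 4 of them the groups overlapped. FOXN3, a repressor with a role in the cell cycle checkpoint (ENSG00000053254, chromosome 14, 89124871 to 89619149), was 13.2, 14.6 and 10 CPM with PBS and 24, 26.6 and 35 CPM with METH (log2 fold change 1.17, SE 0.236, limma adjusted p = 0.0132). Here METH 3 was the highest library, and each METH library was above each PBS library. FOXC1, a factor of mesoderm, eye and neural crest (ENSG00000054598, chromosome 6, 1609972 to 1613897), fell from 22.4, 14.6 and 20.9 CPM with PBS to 7.76, 8.79 and 10.6 CPM with METH (log2 fold change -1.07, SE 0.242, limma adjusted p = 0.0181). All METH libraries of FOXC1 were below all PBS libraries. FOXJ2 (ENSG00000065970, chromosome 12, 8032703 to 8055503) was 3.15, 5.25 and 3.65 CPM with PBS and 6.21, 5.77 and 5.64 CPM with METH (log2 fold change 0.57, SE 0.264, limma adjusted p = 0.0912). FOXJ2 was the least certain of these 3 genes, past the threshold without PBS 11 but not when any other library was left out (limma adjusted p up to 0.21).

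FOXO factors are held in the cytoplasm by AKT phosphorylation and, when in the nucleus, switch on genes of cell cycle arrest, stress resistance and apoptosis. FOXO4 (ENSG00000184481, chromosome X, 71096197 to 71103535) was 4.53, 6.48 and 4.33 CPM with PBS and 9.84, 11.4 and 7.81 CPM with METH (log2 fold change 0.92, SE 0.261, limma adjusted p = 0.0311). The groups of FOXO4 did not overlap, and it was not past the threshold without METH 2 (limma adjusted p = 0.12). FOXO1 was near the limit of what was measured, at 0.235, 0.127 and 0.225 CPM with PBS and 0.409, 0.374 and 0.393 CPM with METH, on 11 to 26 and 34 to 42 reads per library (log2 fold change 0.76, SE 0.337, limma adjusted p = 0.0846). The call of FOXO1 survived the loss of PBS 10 but of no other library (limma adjusted p up to 0.189), and its log2 fold change with 1 CPM added was 0.22. FOXO3B is annotated as a processed pseudogene of FOXO3 on chromosome 17, so that its reads may belong to FOXO3, and it had from no read (PBS 12) to 40 reads in the PBS libraries and 29 to 96 reads in the METH libraries (log2 fold change 1.55, SE 0.676, limma adjusted p = 0.0806). METH 3 of FOXO3B lay within the PBS libraries, and the call was lost without PBS 12, METH 1 or METH 2 (limma adjusted p up to 0.227). On the recovered reads, the DESeq2 adjusted p was 0.196 for FOXO1 and 0.105 for FOXO3B. The log2 fold change of FOXO3B was 0.53 with 1 CPM added and 2.66 with 0.01 CPM added.

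The other FOX genes were at low levels with overlapping groups. FOXI3, of the ectodermal placodes, was 0.361, 1.07 and 0.397 CPM with PBS and 1.72, 1.77 and 0.692 CPM with METH (log2 fold change 1.11, SE 0.481, limma adjusted p = 0.0797). FOXN4, of retinal and spinal progenitors, was 4.27, 1.76 and 3.87 CPM with PBS and 1.68, 2.13 and 1.34 CPM with METH (log2 fold change -0.83, SE 0.376, limma adjusted p = 0.087). FOXR2, which is switched on in some tumours of the nervous system, was 2.56, 0.645 and 1.17 CPM with PBS and 0.292, 0.583 and 0.72 CPM with METH (log2 fold change -1.17, SE 0.497, limma adjusted p = 0.0762). PBS 11 was the highest PBS library for FOXI3 and the lowest for FOXN4 and FOXR2. The calls of FOXI3 and FOXR2 were lost without PBS 10, PBS 12, METH 1 or METH 2, and that of FOXN4 also without METH 3 (limma adjusted p up to 0.205 for FOXI3, 0.205 for FOXR2 and 0.209 for FOXN4). With 1 CPM added, the log2 fold change was 0.56 for FOXI3 and -0.62 for FOXR2.

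Of the genes that regulate FOXO proteins or are known as their targets, 6 of 14 listed were in the table. The kinase gene SGK1, whose product inactivates FOXO proteins, was down-regulated from 75.5 ± 33.8 CPM with PBS to 31.9 ± 4.64 CPM with METH (mean ± SD, n = 3, here and for the listed genes that follow; log2 fold change -1.14, SE 0.332, limma adjusted p = 0.0334). GADD45A, a growth arrest gene, was up-regulated from 49.5 ± 18.2 CPM to 117 ± 35.8 CPM (log2 fold change 1.27, SE 0.312, limma adjusted p = 0.0224). CDKN1B, a cell cycle inhibitor, was up-regulated from 24.9 ± 5.15 CPM to 36.4 ± 2.95 CPM (log2 fold change 0.56, SE 0.211, limma adjusted p = 0.0586). In all, 4 of the 6 were up-regulated, 1 was down-regulated and 1 was not past the threshold. Of all genes of the table, 33.3% were up-regulated and 35.8% down-regulated. The gene not past the threshold was lower on average with METH and had the largest change of the 6 (-2.07 on the log2 scale, SE 1.16), with overlapping groups. The groups also overlapped in an up-regulated gene not named here. A link of these genes to FOXO activity was not tested.

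The 4 KLF genes of the table were each past the threshold with groups that did not overlap, 3 up-regulated and 1 down-regulated. KLF6, an activator induced by injury and growth signals (ENSG00000067082, chromosome 10, 3775996 to 3785281), was 9.13, 8.01 and 5.81 CPM with PBS and 24.8, 23.7 and 16.2 CPM with METH (log2 fold change 1.49, SE 0.261, limma adjusted p = 0.0091). KLF3, a repressor that recruits CtBP (ENSG00000109787, chromosome 4, 38664196 to 38701042), was 6.33, 6.23 and 4.84 CPM with PBS and 18.3, 16.8 and 12.7 CPM with METH (log2 fold change 1.44, SE 0.238, limma adjusted p = 0.00841). For both genes every METH library was above every PBS library, by at least 7.12 CPM for KLF6 and 6.38 CPM for KLF3, and the METH mean was 2.82 and 2.75 times the PBS mean. KLF10 and KLF11 are related repressors induced by TGF-beta, and they moved in opposite directions. KLF11 (ENSG00000172059, chromosome 2, 10042849 to 10054836) was 3.59, 5.42 and 3.17 CPM with PBS and 7.01, 6.76 and 8.3 CPM with METH (log2 fold change 0.87, SE 0.271, limma adjusted p = 0.0381). KLF10 (ENSG00000155090, chromosome 8, 102648779 to 102655902) was 23.2, 29.2 and 20.2 CPM with PBS and 15.1, 12.1 and 13.3 CPM with METH (log2 fold change -0.83, SE 0.218, limma adjusted p = 0.026). The 2 genes were each not past the threshold without METH 2 (limma adjusted p = 0.101 for KLF11 and 0.103 for KLF10). SP factors bind the same kind of GC-rich site, and of 9 listed 3 were in the table, where SP1 was up-regulated (log2 fold change 0.60, SE 0.232, limma adjusted p = 0.0641) and SP4 and SP5 were not past the threshold.

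TBX2 and TBX3 encode closely related T-box repressors, and they changed in opposite directions. TBX2 (ENSG00000121068, chromosome 17, 61399896 to 61409466) was 83.3, 79.1 and 105 CPM with PBS and 130.3, 130.2 and 116 CPM with METH (log2 fold change 0.50, SE 0.20, limma adjusted p = 0.0677). TBX3 (ENSG00000135111, chromosome 12, 114670254 to 114684164) was 56.4, 38 and 41.7 CPM with PBS and 13.1, 12.1 and 18.4 CPM with METH (log2 fold change -1.64, SE 0.244, limma adjusted p = 0.00583). The METH libraries of TBX2 lay above the PBS libraries by at least 11.3 CPM, and those of TBX3 below them by at least 19.6 CPM. The decrease of TBX3 held without any single library (limma adjusted p up to 0.0363), while the call of TBX2 was lost without PBS 10, PBS 11, METH 1 or METH 2 (limma adjusted p up to 0.192). AC005746.2, annotated on the other strand within TBX2, went from 4.03 CPM to 7.68 CPM on average, and without strand information reads of the 2 genes cannot be told apart. TBX4, a hindlimb and lung factor that neighbours TBX2, had 7 to 22 reads with PBS and 30 to 62 reads with METH (log2 fold change 1.25, SE 0.375, limma adjusted p = 0.0354). Its groups did not overlap, and it was not past the threshold without METH 1 (limma adjusted p = 0.108). The log2 fold change of TBX4 with 1 CPM added was 0.37.

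Of the bHLH factors, HAND1 and TCF15 were down-regulated, NEUROD1 was up-regulated and TWIST1 was not past the threshold. HAND1, a factor of heart, trophoblast and sympathetic precursors (ENSG00000113196, chromosome 5, 154474972 to 154478264), was 59.1, 49.2 and 83.3 CPM with PBS and 27, 20.8 and 28.8 CPM with METH (log2 fold change -1.3, SE 0.246, limma adjusted p = 0.0108). TCF15, a factor of somites (ENSG00000125878, chromosome 20, 603797 to 610398), was 1.38, 2.75 and 3.2 CPM with PBS and 0.537, 0.87 and 1.01 CPM with METH (log2 fold change -1.45, SE 0.388, limma adjusted p = 0.0271). In both genes the METH libraries were all below the PBS libraries, for HAND1 by at least 20.5 CPM. With 1 CPM added, the log2 fold change of TCF15 was -0.90. NEUROD1, a driver of neuronal differentiation (ENSG00000162992, chromosome 2, 181673088 to 181680876), was 0.731, 0.61 and 0.505 CPM with PBS and 0.957, 0.969 and 1.34 CPM with METH (log2 fold change 0.73, SE 0.311, limma adjusted p = 0.0772). The groups of NEUROD1 did not overlap, but the call was lost without PBS 12 or any one of the METH libraries (limma adjusted p up to 0.184). Its log2 fold change with 1 CPM added was 0.37, and it overlaps CERKL on the same strand.

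TWIST1, which acts in mesoderm and neural crest, had the highest level of the 50 genes per kb of exon in both groups. It was 189, 268 and 297 CPM with PBS and 397, 342 and 256 CPM with METH (log2 fold change 0.40, 95% interval -0.20 to 1.0, limma adjusted p = 0.182). METH 3 lay within the range of the PBS libraries, and leaving out any single library did not bring TWIST1 past the threshold. Its antisense gene AC003986.2 had a mean of 1.33 CPM in the PBS libraries and of 0.421 CPM in the METH libraries. SNAI2 (Slug), a zinc finger repressor of E-cadherin in migrating neural crest (ENSG00000019549, chromosome 8, 48917604 to 48921740), was 2.37, 1.54 and 2.27 CPM with PBS and 4.41, 3.35 and 4.54 CPM with METH (log2 fold change 0.97, SE 0.284, limma adjusted p = 0.0335). Each METH library of SNAI2 was above each PBS library, and the call was lost without METH 1 (limma adjusted p = 0.104). The inhibitors of bHLH factors ID1 and ID3 were both up-regulated, where 33.3% of all genes of the table were. They were 2 of 4 listed genes and the only ones in the table. ID1 went from 255 ± 72.8 CPM to 546 ± 93.8 CPM (log2 fold change 1.12, SE 0.279, limma adjusted p = 0.0228) and ID3 from 134 ± 33.9 CPM to 215 ± 61.3 CPM (log2 fold change 0.68, SE 0.29, limma adjusted p = 0.078), with METH 3 of ID3 below PBS 12.

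TCF19 matched the rule by its name but is a protein with FHA and PHD domains linked to the cell cycle, and not a bHLH factor (ENSG00000137310, chromosome 6, 31158542 to 31167159). It was 9.89, 10.5 and 10.7 CPM with PBS and 4.67, 4.73 and 4.47 CPM with METH (log2 fold change -1.15, SE 0.21, limma adjusted p = 0.00998). The libraries of TCF19 were tightly grouped, with 5.16 CPM between the groups. It overlaps POU5F1 on the other strand, which is not in the table.

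Levels of different genes were compared per kb of annotated exon (GENCODE release 29). With PBS the mean level of TWIST1 was 123.6 CPM per kb, followed by HAND1 at 36.7, MEIS3 at 15.6, TBX2 at 14.8 and PBX2 at 12 CPM per kb. The PBS libraries of TWIST1 (93.0 to 146.02 CPM per kb) and of HAND1 (28.3 to 47.9) did not overlap with each other or with those of the next gene, whereas those of MEIS3 (9.03 to 19.4), TBX2 (13.1 to 17.4) and PBX2 (8.88 to 14.8) overlapped. With METH, HAND1 had rank 5 at 14.7 CPM per kb, behind TWIST1 at 163, MEIS3 at 22.3, TBX2 at 20.8 and PBX2 at 17. TBX3 moved from rank 7 to rank 21 of the 50 and SOX2 from rank 40 to rank 26. At the other end, SOX5 and FOXO1 had the lowest levels with PBS, at 0.024 and 0.031 CPM per kb. In 6 of the 50 genes the mean was under 1 CPM in both groups.

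**Figure D4:**
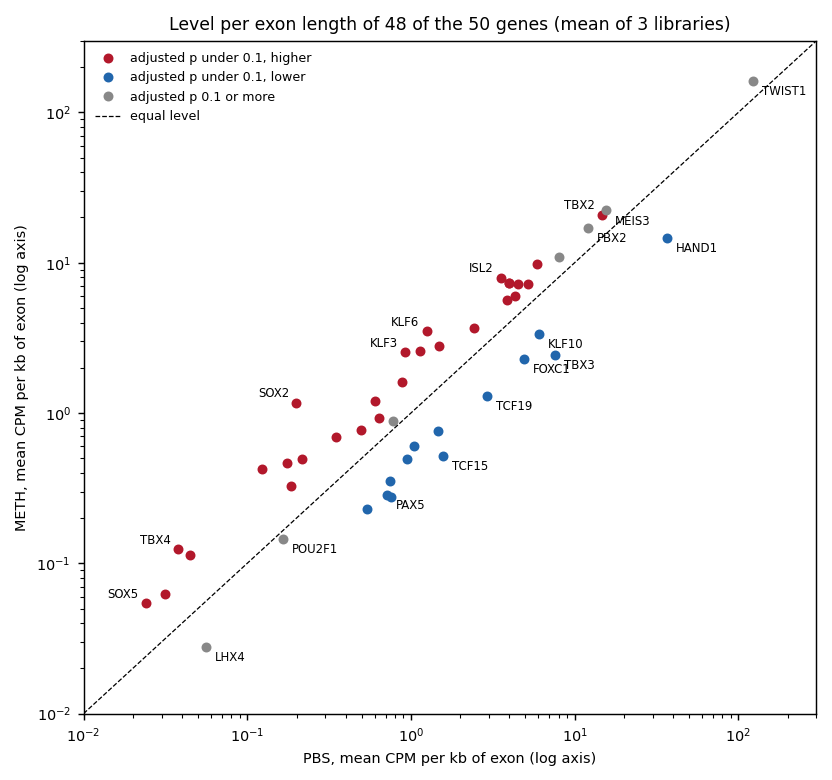
Mean level of 48 of the 50 genes in CPM per kb of exon with PBS (horizontal, log axis) and with METH (vertical, log axis), coloured by the limma call, with a dashed line at equal levels. TWIST1 is at the top right in both groups, HAND1 lies below the line at 36.7 and 14.7, and SOX2 lies above it at 0.199 and 1.17.

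Several members lie next to each other. The naming rule did not use positions, but it selected families by prefix, and these neighbours share a prefix. Of 7 pairs of the genes described here within 1 Mb of each other, 5 had log2 fold changes of the same sign and 2, both with HOXD3, of opposite sign. The log2 fold change was positive in 35 of the 50 members, so members that are not neighbours also often share a sign. Such neighbours can share regulatory regions and, within the HOX clusters, transcripts, so the pairs are not independent of each other.

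The study is centred on miR-129-1-3p, and its seed was searched for in the members' 3′ UTRs (the longest of each gene in GENCODE release 29). Its mature sequence is given from RefSeq (GRCh38.p14, chr7:128207920-128207941, plus strand) with the seed, bases 2 to 8, in capitals. Below it are the matches in HAND1, which was down-regulated, and FOXN3, which was up-regulated, with the 7 matching bases in capitals. The match starts at base 298 of the HAND1 3′ UTR and at bases 4217 and 4280 of that of FOXN3. These are 2 of the 3 called members with a match.
hsa-miR-129-1-3p: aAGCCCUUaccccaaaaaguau
HAND1: gggactgtcgaacccAAGGGCTca
FOXN3, first match: aggactgcccaggccAAGGGCTac
FOXN3, second match: ttgggcctctcctggAAGGGCTct
A match was found in 7 of 49 members with a 3′ UTR (14.3%) and in 14% of the 3488 genes of the table with one. The 7 genes were FOXN3, HAND1, KLF10, LHX4, MEIS3, PBX2 and POU2F1, of which 1 was up-regulated, 2 were down-regulated and 4 were not past the threshold. A match of these letters does not show binding, and the share among the members was close to that of the table.

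Partners and regulators of these factors were described by lists chosen from general knowledge. Beside their counts, 33.3% of all genes of the table were up-regulated and 35.8% down-regulated at the limma threshold. Of the Groucho and CtBP corepressors, 3 of 11 were in the table, with TLE1 up-regulated from 38.3 ± 3.89 CPM to 72.2 ± 11.4 CPM (log2 fold change 0.90, SE 0.202, limma adjusted p = 0.0176), TLE3 down-regulated from 34.8 ± 9.83 CPM to 12.4 ± 1.38 CPM (log2 fold change -1.45, SE 0.257, limma adjusted p = 0.00913), and RCOR1 not past the threshold (log2 fold change -0.62, SE 0.305, limma adjusted p = 0.101). Among 20 Polycomb genes and opposing enzymes, which control the chromatin of developmental factor genes, 5 were in the table, and 4 were down-regulated and 1 up-regulated. The groups of the up-regulated gene overlapped, and a link of these genes to the members was not tested. The lowest adjusted p-values were those of CBX2 (log2 fold change -1.06, SE 0.221, limma adjusted p = 0.0145), EED (log2 fold change -0.74, SE 0.215, limma adjusted p = 0.0334) and EZH2 (log2 fold change -0.63, SE 0.196, limma adjusted p = 0.0378), all 3 down-regulated. The TALE factors TGIF1 and TGIF2, the 2 of 7 further partner genes in the table, went in opposite directions, with log2 fold changes of 0.96 (limma adjusted p = 0.055) and -0.61 (limma adjusted p = 0.0745). Of 55 other homeobox and bHLH genes 12 were in the table, 2 up-regulated, 6 down-regulated and 4 not past the threshold, with a median log2 fold change of -0.65. The lowest adjusted p-value there was that of ATOH8 (log2 fold change -1.82, SE 0.346, limma adjusted p = 0.0108), which was down-regulated.

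Markers of cell types were also examined, as far as they were in the table, where 33.3% of all genes were up-regulated and 35.8% down-regulated. Of 15 markers of noradrenergic neuroblastoma cells 7 were in the table, 5 down-regulated, 1 up-regulated (CHGB) and 1 not past the threshold, and their summed level was 1017 to 1099 CPM with PBS and 914 to 1031 CPM with METH. Of 8 markers of mesenchymal-type neuroblastoma cells 3 were in the table, the members SNAI2 and TWIST1 and the intermediate filament gene VIM, with a sum of 455 to 743 CPM with PBS and 794 to 1146 CPM with METH. Of 5 fibroblast markers DCN and LUM were in the table, both up-regulated, with a sum of 19.1 to 25.3 CPM with PBS and 39.9 to 46 CPM with METH. Of 6 Schwann and glial markers only ERBB3 was in the table, up-regulated, at 0.268 to 0.46 CPM with PBS and 0.537 to 0.785 CPM with METH. Markers not in the table were not analysed here. The fibroblast and mesenchymal sums were higher with METH, while the noradrenergic sums overlapped between the groups. The mesenchymal sum contains the members SNAI2 and TWIST1, so its direction is not separate from theirs, and TWIST1 was not past the threshold. The part of these cell types in the changes was not tested. In bulk libraries, a change in the number of cells of a kind and a change in RNA per cell cannot be told apart.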

How the data were processed

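RNA of 6 SH-SY5Y libraries was sequenced on an Illumina platform by the authors, 3 with METH and 3 with PBS. The authors deposited CPM values per library for 4101 genes, in columns headed FPKM. All values of a column are whole multiples of 1 step (tolerance 0.0006 CPM) whatever the gene length, which identifies them as CPM, and the reads were recovered from the steps. Fold changes, log2 fold changes, p-values and adjusted p-values of the authors' own comparison are also deposited. Of these only the p-value columns were read, to learn how the genes had been selected and over how many genes (15724) the authors had adjusted. The aligner, counting tool and genome build are not given in the sources used here.

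Groups were compared by limma 3.58.1 (R 4.3.3, with a trend) on log2(CPM + 0.1), without a filter on low values. edgeR 4.0.16 (quasi-likelihood) and DESeq2 1.42.0 were run on the recovered reads. The main limma fit and the edgeR and DESeq2 fits were tested on simulated data. Full values are given for the 33 members past the threshold whose groups do not overlap and whose mean is at least 1 CPM in a group, and fewer values for the others. Some genes are not reported here, and counts over all members and lists include them. From each related list at most the 3 genes with the lowest adjusted p are named, and marker lists are given by their sums. The members and lists were chosen with earlier results of these data known. The PBS samples have other numbers in the labels than in the table (10 to 12), so libraries were not paired. Positions were taken from GENCODE release 29 (4093 of the 4101 identifiers matched), and promoter and miRNA sequences from RefSeq (GRCh38.p14). Python 3.11.15 was used for the other steps.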

Additional observations from a re-analysis of the deposited data

How the results depend on the processing

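With 30 up-regulated and 13 down-regulated members in the comparison of all libraries, the threshold of 0.05 left 16 up-regulated members, and adjustment over 15724 genes left 8 up-regulated and 6 down-regulated. Leaving out 1 library gave 10 (without METH 1) to 27 (without METH 3) up-regulated members and 7 (without METH 2) to 13 (without PBS 11) down-regulated ones. Why the counts differed with the library left out was not tested. The counts stayed within 1.5 times with a pseudocount of 1 or 0.01, a filter at 1 CPM, limma without a trend, median-ratio scaling, edgeR and DESeq2. For the 33 members given in full, 495 values under alternatives were computed, of which 410 kept their direction and their side of the threshold, 85 kept the direction only, and 0 reversed. These 33 members were chosen for groups that do not overlap. Only median-ratio scaling, edgeR and DESeq2 could therefore have reversed a direction, and under the other settings the direction was fixed in advance. Among all 50 members only POU2F1 changed sign, to 0.02 without METH 2. No paired analysis was possible because the PBS columns carry the numbers 10 to 12, which no label gives. Depth limits the genes with few reads. With a pseudocount of 1 the log2 fold change shrank by more than 1.5 times in POU4F2, LHX4, FOXO1, TBX4, SOX5, FOXO3B, SOX14, NEUROD1, FOXI3, FOXR2, SOX2, TCF15 and IRX5, as given beside each gene.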
